A study of Mus musculus with 19 samples.

Results

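The monocyte-like and the neutrophil-like myeloid-derived suppressor cells of the newborn mouse spleen were compared with each other across all genes. The 10 libraries were chosen from the 19 of the series by their labels: 5 of newborn M-MDSC (replicates 1, 2, 3, 77 and 79) and 5 of newborn PMN-MDSC (replicates 2, 3, 37, 38 and 39). Myeloid-derived suppressor cells (MDSC) are immature myeloid cells defined by their ability to restrain T cells. Their 2 main forms follow the 2 lines of myeloid differentiation, so that M-MDSC share surface markers with classical monocytes and PMN-MDSC with neutrophils. Monocytes leave the common progenitor under the transcription factors IRF8 and KLF4 and respond to M-CSF and to the chemokine CCL2, whereas neutrophils mature under C/EBP epsilon and G-CSF and fill their granules in a fixed order, with myeloperoxidase and elastase made early and lactoferrin, cathelicidin and gelatinase made late. Both lines can kill microbes and inhibit T cells through reactive oxygen species from the NADPH oxidase, and MDSC are further known for arginase, nitric oxide synthase and prostaglandin E2.

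Newborn mice were 7 days old. The adult mice, whose 3 M-MDSC and 6 PMN-MDSC libraries serve here only for reference, were 6 to 8 weeks old. No strain, genotype or treatment is given for any group. Spleen cells were freed of red cells by lysis before isolation. The labels describe the isolation in 2 ways that differ. One has PMN-MDSC taken on columns through a biotinylated Ly6G antibody and M-MDSC taken by a cell sorter as CD11b+/Ly6Chigh/Ly6G- cells. The other has both cell types enriched with CD11b beads and then sorted, PMN-MDSC as CD11b+Ly6CintLy6G+ and M-MDSC as CD11b+Ly6ChighLy6G-. Where the first route was used, the cell type and the way it was isolated cannot be told apart. Sequencing of total RNA gave single-end reads of 50 bp. The labels do not say whether replicates came from separate or pooled animals, so p-values measure the spread between libraries, which may be technical in part. In bulk samples, fewer cells of a type and less RNA per cell cannot be told apart.

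Depth differed between the 2 batches that the labels name. Total counts ran from 1785402 to 23344379 in the M-MDSC libraries and from 2314868 to 39578510 in the PMN-MDSC libraries, with replicates 1 to 3 (batch 1) shallow and the others (batch 2) deep. Levels below are CPM, counts per unit of the scaled library size, and a mean is given with its SD over 5 libraries. A count of 0 over a whole group allows up to 3 counts, or 0.0577 CPM in M-MDSC and 0.0435 CPM in PMN-MDSC. The cell types separated on the first principal component of the 10 libraries, which held 51.1% of the variance. The second component (19.7%) set M-MDSC replicate 77 apart from the other M-MDSC libraries. Correlations of log2 CPM between pairs of M-MDSC libraries ran from 0.792 to 0.918, lowest between replicates 2 and 77, and those between pairs of PMN-MDSC libraries from 0.939 to 0.984. PMN-MDSC replicates 2 and 37, and 3 and 38, came from different batches and had the lowest chi-square of any such pair (3.92 and 3.33 per degree of freedom, where the 4 remaining pairs gave 7.36 to 11.5). They may share a source, which the labels do not state. Counts were therefore also tested without PMN-MDSC replicates 2 and 3 (with their adult counterparts, replicates 1 to 3), and, as an alternative chosen after seeing the data, without M-MDSC replicates 2 and 77. Transcripts of the X-inactivation gene Xist (M-MDSC 63.1 to 525 CPM, PMN-MDSC 165 to 484 CPM) and of the Y-linked gene Kdm5d (1.28 to 17.8 and 3.57 to 20.2 CPM) were read in all 10 libraries. In the 9 adult libraries Kdm5d had no count and Xist was at 555 to 1059 CPM in M-MDSC and 1389.8 to 2154 CPM in PMN-MDSC, so sex composition and age cannot be told apart in the comparisons between ages.

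The genes used for sorting checked the labels and are not findings. Ly6g, the antigen of the neutrophil gate, was at 0, 1.28, 1.85, 0 and 1.25 CPM in M-MDSC and 216, 208, 245, 222 and 176 CPM in PMN-MDSC, and its groups did not overlap. Itgam, which encodes CD11b and was shared by both gates, was at 767 ± 169.6 CPM in M-MDSC and 3746 ± 312 CPM in PMN-MDSC. Ly6c2, which encodes part of the Ly6C antigen, was at 580.4, 1068, 829.7, 447 and 562 CPM in M-MDSC and 449, 425, 478, 463 and 393 CPM in PMN-MDSC. The groups overlapped, with M-MDSC replicate 77 among the PMN-MDSC libraries, and the log2 fold difference of 0.58 ± 0.24 (adjusted p = 0.0629) was not called, although 7 of 35 alternative analyses called it. Ly6c1 was at 12.02 ± 9.12 CPM in M-MDSC and 8.70 ± 8.72 CPM in PMN-MDSC. Estimated counts divide reads among close relatives, so the values of Ly6c1 and Ly6c2, of Chil3 and Chil5, of Mrgpra2a and of ribosomal protein genes are uncertain.

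Of 12943 genes tested, 5437 (42%) differed between the cell types at an adjusted p under 0.05 (edgeR quasi-likelihood test with batch in the model, Benjamini-Hochberg adjustment), which is what "called" means below. Among them, 2414 (18.7% of the genes tested) were higher in M-MDSC and 3023 (23.4%) were higher in PMN-MDSC. These 2 shares are the reference for the counts of list members below. Of the called genes, 5411 (99.5%) had the same sign in both batches. The CPM of the 2 groups did not overlap for 4975 genes (38.4%). Differences of at least 4-fold were more numerous toward PMN-MDSC, with 1064 called genes against 497 toward M-MDSC. The median log2 fold difference of all genes, given throughout as M-MDSC over PMN-MDSC, was -0.13. Upper-quartile scaling raised the log2 fold differences of the genes by a median of 0.15. It turned the split of the calls to 2934 higher in M-MDSC and 2528 higher in PMN-MDSC, so small differences depend on the scaling. Without PMN-MDSC replicates 2 and 3 the split was 1233 to 3066, with 3373 of these 4299 genes also called in the main analysis.

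**Figure D1:**
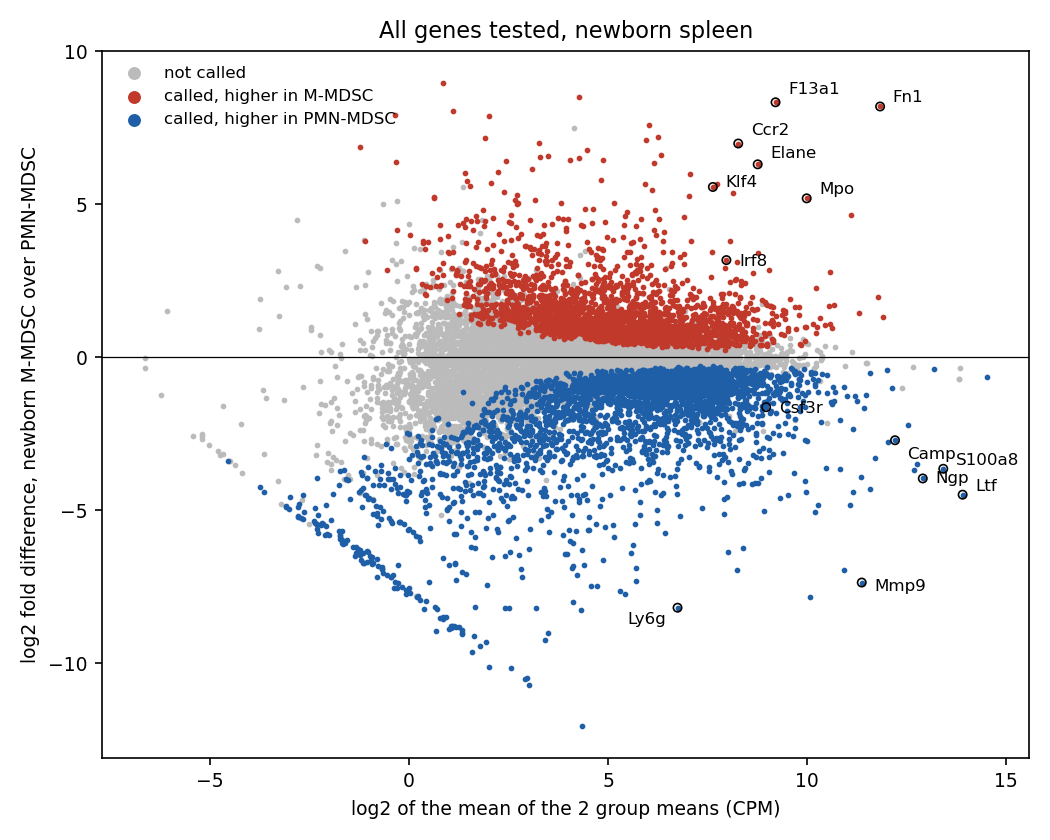
Each point is 1 of the 12943 genes tested in newborn cells, with log2 of the mean of the 2 group means in CPM on the x axis and the log2 fold difference of M-MDSC over PMN-MDSC on the y axis. Called genes are red (higher in M-MDSC) or blue (higher in PMN-MDSC), and named genes include Fn1 at 8.19 and Ly6g at -8.18.

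Markers of other spleen cells were not equal in the 2 groups. The list of 17 tissue macrophage genes, all tested, had 16 members higher in PMN-MDSC and none higher in M-MDSC, with a median of -4.42 and a summed level of 2668, 3155, 2810.1, 3294 and 2889 CPM in the 5 PMN-MDSC libraries against 625, 609.9, 598, 554 and 612 CPM in the 5 M-MDSC libraries. All PMN-MDSC sums lay above all M-MDSC sums. Vcam1, an adhesion molecule of splenic macrophages, was at 33.0, 29.5, 35.7, 4.83 and 12.6 CPM in M-MDSC and 414, 499, 467, 526 and 503 CPM in PMN-MDSC. Slc40a1, the iron exporter ferroportin, was at 41.5 ± 13.5 CPM in M-MDSC and 748 ± 36.2 CPM in PMN-MDSC. Mrc1, the mannose receptor, stood at 6.06 ± 1.97 CPM in M-MDSC and 138 ± 15.99 CPM in PMN-MDSC. C1qb, a subunit of complement C1q, was at 4.50 ± 1.35 CPM in M-MDSC and 145 ± 25.5 CPM in PMN-MDSC. Their log2 fold differences were -4.58 ± 0.50 (adjusted p = 7.02e-07), -4.14 ± 0.27 (adjusted p = 1.45e-09), -4.42 ± 0.36 (adjusted p = 2.13e-08) and -4.98 ± 0.36 (adjusted p = 5.56e-09).

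B cell genes showed the same direction, with 13 of 13 tested members higher in PMN-MDSC, a median of -2.13 and sums of 717 to 1089.9 CPM against 189 to 339.9 CPM in M-MDSC. Ighm, the immunoglobulin mu chain, was at 128 ± 30.1 CPM in M-MDSC and 350.0 ± 57.3 CPM in PMN-MDSC. Erythroid genes summed to 1706, 2956, 1143, 41.4 and 124 CPM in M-MDSC and to 5742, 3327, 5489, 3288 and 5042 CPM in PMN-MDSC. The sums did not overlap, and those of M-MDSC replicates 77 and 79 were the lowest. Of 18 erythroid genes tested, 9 were called higher in PMN-MDSC, a count that ran from 1 to 18 across the alternatives. Eosinophil genes had 6 of 10 tested members higher in PMN-MDSC, platelet genes 3 of 6, T cell genes 3 of 17 and mast cell and basophil genes 1 of 5, none being higher in M-MDSC. NK cell genes had 1 of 8 higher in M-MDSC, and dendritic cell genes had 3 of 15 higher in M-MDSC and 1 in PMN-MDSC. Plasma cell genes had 2 of 10 members higher in M-MDSC and 3 in PMN-MDSC. Of all genes tested, 18.7% were higher in M-MDSC and 23.4% in PMN-MDSC. The counts of T cell, mast cell and basophil, NK cell, dendritic cell and plasma cell genes were near or below these shares. The part of these other cells in the differences below was not tested. Several of the pathway lists below share genes with these marker lists.

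**Figure D2:**
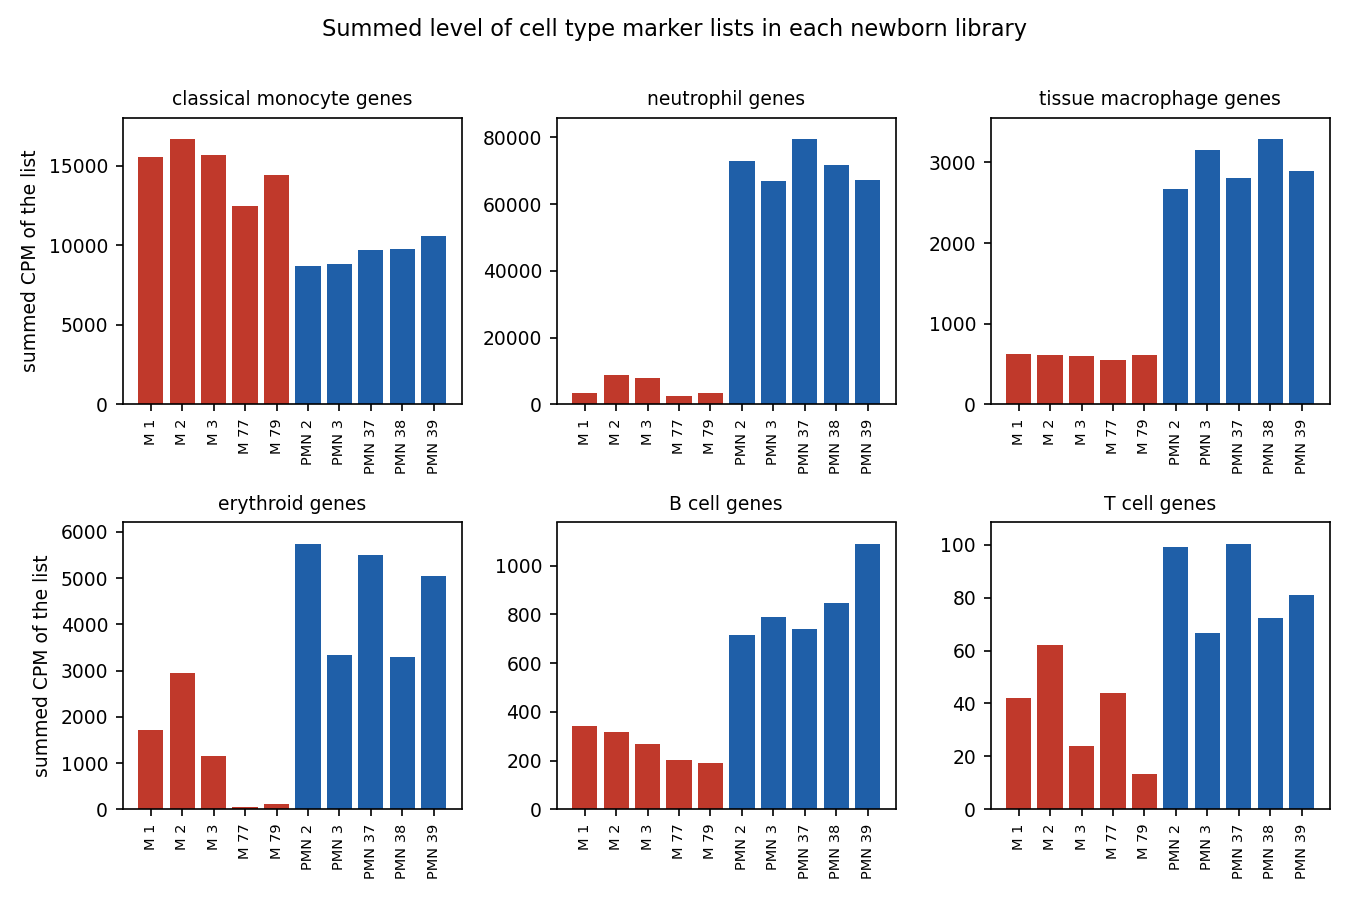
Bars give the summed CPM of 6 marker lists in each of the 10 newborn libraries (red: M-MDSC, blue: PMN-MDSC, with replicate numbers on the x axis). Neutrophil genes sum to 66971 to 79557 CPM in PMN-MDSC, against 2431 to 8766 CPM in M-MDSC. The sums of macrophage, erythroid, B cell and T cell genes are higher in every PMN-MDSC library than in any M-MDSC library.

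Genes of classical monocytes were higher in newborn M-MDSC. Of 20 such genes, all tested, 15 were higher in M-MDSC and 2 in PMN-MDSC, with a median log2 fold difference of 2.61. Fn1, which encodes the matrix protein fibronectin (chromosome 1, 71585520 to 71653200 on GRCm38), was at 7689, 8471, 7401, 5820.0 and 6928 CPM in M-MDSC and 14.2, 29.4, 13.9, 34.4 and 31.4 CPM in PMN-MDSC. Every M-MDSC library lay far above every PMN-MDSC library (log2 fold difference 8.19 ± 0.33 (adjusted p = 3.67e-12)). F13a1, the A chain of clotting factor XIII, was at 1278, 854, 1374, 1063 and 1314 CPM in M-MDSC and 2.74, 2.59, 2.00, 5.27 and 4.47 CPM in PMN-MDSC, again without overlap (log2 fold difference 8.33 ± 0.29, adjusted p = 6.33e-13). The proteoglycan gene Vcan, at 123 ± 31.1 CPM in M-MDSC and 0.853 ± 0.364 CPM in PMN-MDSC, behaved alike (log2 fold difference 7.10 ± 0.59, adjusted p = 2.45e-08).

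Receptors that guide and maintain monocytes differed in degree. Ccr2, the receptor for CCL2 (chromosome 9, 124101950 to 124113557), was at 551, 228, 525, 813 and 941 CPM in M-MDSC and 4.38, 5.19, 6.53, 3.29 and 5.28 CPM in PMN-MDSC. M-MDSC replicate 2 was the lowest of its group, and no PMN-MDSC library came near it (log2 fold difference 6.98 ± 0.45, adjusted p = 1.03e-09). Cx3cr1, the fractalkine receptor of patrolling monocytes, was at 138 ± 37.2 CPM in M-MDSC and 8.61 ± 0.929 CPM in PMN-MDSC (log2 fold difference 4.01 ± 0.23, adjusted p = 2.77e-10). Csf1r, the receptor for M-CSF, was at 1037, 1237, 984, 592 and 922 CPM in M-MDSC and 468, 572, 479, 600.2 and 468 CPM in PMN-MDSC. Its groups overlapped, with M-MDSC replicate 77 below PMN-MDSC replicate 38. The difference was 0.86 ± 0.22 (adjusted p = 0.00411) and was no longer called in batch 2 alone or without PMN-MDSC replicates 2 and 3. Patrolling monocyte genes divided, with 8 of 17 tested members higher in M-MDSC and 5 in PMN-MDSC, the 5 becoming 8 without adult PMN-MDSC replicate 1, adult M-MDSC replicate 1 or newborn M-MDSC replicate 2.

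Against the direction of its list, Chil3, the chitinase-like protein Ym1, was higher in PMN-MDSC, at 898, 1409, 1382, 869 and 651 CPM in M-MDSC and 6484, 6473, 7452, 7349 and 8512 CPM in PMN-MDSC (log2 fold difference -2.78 ± 0.25, adjusted p = 5.63e-08). It supplied most of the summed level of classical monocyte genes in PMN-MDSC, which was 8717 to 10562 CPM against 12456 to 16705 CPM in M-MDSC. The antigen-processing protease Ctss (cathepsin S) was higher in M-MDSC, at 454 ± 88.0 CPM in M-MDSC and 82.9 ± 6.65 CPM in PMN-MDSC (log2 fold difference 2.45 ± 0.16, adjusted p = 1.40e-09).

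**Figure D3:**
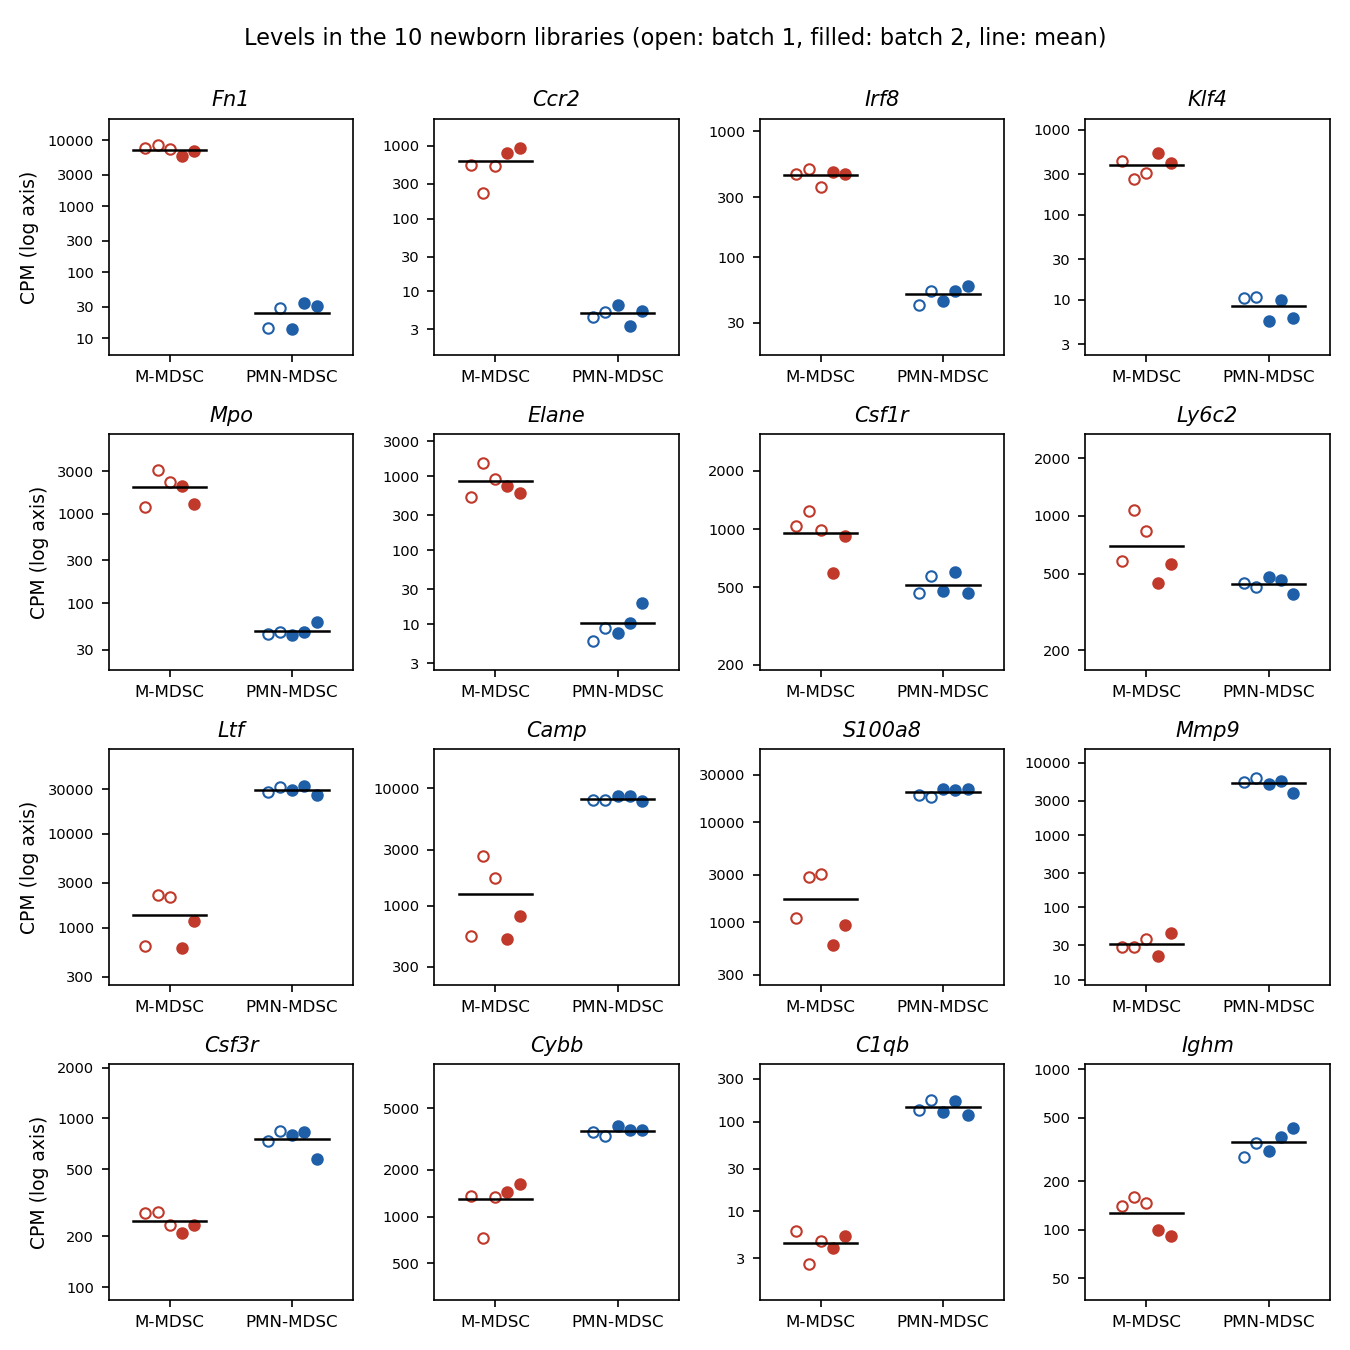
Points give the CPM of 16 genes in each newborn library on log axes (open: batch 1, filled: batch 2), and lines give group means. The groups do not overlap except for Csf1r and Ly6c2, where M-MDSC replicate 77 lies within the PMN-MDSC range.

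Genes of mature neutrophils were higher in newborn PMN-MDSC. Of 23 neutrophil genes, all tested, 22 were higher in PMN-MDSC and none in M-MDSC, with a median of -4.19. Cxcr2, the receptor by which neutrophils follow CXC chemokines, was at 19.8 ± 6.34 CPM in M-MDSC and 465 ± 55.5 CPM in PMN-MDSC (log2 fold difference -4.64 ± 0.44, adjusted p = 1.51e-07). Csf3r, the G-CSF receptor, was at 247 ± 30.03 CPM in M-MDSC and 756 ± 108 CPM in PMN-MDSC, a smaller fold (log2 fold difference -1.63 ± 0.14, adjusted p = 5.06e-08). Fpr1 and Fpr2, receptors for bacterial formyl peptides, differed by -4.94 ± 0.27 (adjusted p = 1.84e-10) and -4.15 ± 0.20 (adjusted p = 4.31e-11). Mrgpra2a was at 23.5, 47.1, 51.4, 40.6 and 42.1 CPM in PMN-MDSC and had no count in any M-MDSC library, so it was at least 788-fold higher in PMN-MDSC (counts pooled over each group, which weights the deep libraries, against 3 counts over the M-MDSC group). Ly6g is a member of this list and was also used in the sort.

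Genes of secondary and tertiary granule proteins had the same direction, in a list that shares Lcn2, Mmp8, Mmp9 and Cd177 with the neutrophil list. Of 20 listed genes, 19 were tested, of which 18 were higher in PMN-MDSC and 1 in M-MDSC (median -3.96). Their summed level was 84791 to 97630.5 CPM in PMN-MDSC, against 3894 to 12645 CPM in M-MDSC. Ltf, the iron-binding protein lactoferrin (chromosome 9, 111019271 to 111042767), was at 631, 2242, 2136, 608 and 1173 CPM in M-MDSC and 27871, 31273, 29146, 32078 and 26127 CPM in PMN-MDSC. Camp, the antimicrobial peptide cathelicidin, was at 549, 2651, 1711, 524 and 817 CPM in M-MDSC and 7983, 7910.3, 8553, 8678 and 7882 CPM in PMN-MDSC. Ngp, neutrophilic granule protein, was at 479.7, 2239.7, 1581, 343 and 492 CPM in M-MDSC and 15637, 12534, 16394, 12858 and 14046 CPM in PMN-MDSC. In all 3 genes M-MDSC replicates 2 and 3 were the highest of their group and still lay below every PMN-MDSC library. The log2 fold differences were -4.49 ± 0.36 (adjusted p = 1.95e-08), -2.71 ± 0.43 (adjusted p = 5.84e-05) and -3.96 ± 0.42 (adjusted p = 5.59e-07).

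Mmp9, the gelatinase of tertiary granules (chromosome 2, 164940780 to 164955850), was at 28.3, 28.2, 36.1, 21.1 and 44.2 CPM in M-MDSC and 5468, 6232, 5148, 5678 and 3787 CPM in PMN-MDSC, with no M-MDSC library above 44.2 CPM (log2 fold difference -7.36 ± 0.35, adjusted p = 4.11e-11). Mmp8, the neutrophil collagenase, was at 83.8 ± 20.3 CPM in M-MDSC and 2381 ± 335 CPM in PMN-MDSC (log2 fold difference -4.83 ± 0.18, adjusted p = 1.22e-12). The calprotectin subunits S100a8 and S100a9, which bind metal ions and make up much of neutrophil cytosol, remained readable in M-MDSC. S100a8 was at 1106, 2868, 3046, 588 and 939 CPM in M-MDSC and 18653, 17903, 21765, 21015 and 21546 CPM in PMN-MDSC (log2 fold difference -3.64 ± 0.40, adjusted p = 7.82e-07), and S100a9 was at 1233 ± 1053 CPM in M-MDSC and 12549.6 ± 724 CPM in PMN-MDSC (log2 fold difference -3.50 ± 0.49, adjusted p = 1.46e-05). Within M-MDSC, replicates 2 and 3 carried the highest levels of both.

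The early, primary granule genes went mostly the opposite way. Of 11 listed, 10 were tested, 6 were higher in M-MDSC and 3 in PMN-MDSC (median 2.03). Mpo, myeloperoxidase, was at 1199, 3116, 2263, 2041 and 1286 CPM in M-MDSC and 44.9, 47.1, 44.3, 47.7 and 62.1 CPM in PMN-MDSC (log2 fold difference 5.19 ± 0.40, adjusted p = 1.16e-08). Elane, neutrophil elastase, was at 527, 1496, 911, 743 and 595 CPM in M-MDSC and 6.02, 9.08, 7.6002, 10.3 and 19.3 CPM in PMN-MDSC (log2 fold difference 6.30 ± 0.59, adjusted p = 1.03e-07). M-MDSC replicate 2 was the highest in both genes, and the groups did not overlap. Prtn3, proteinase 3, differed by 5.66 ± 0.40 (adjusted p = 2.87e-09), and Ctsc, the protease that activates these serine proteases, by 2.57 ± 0.20 (adjusted p = 9.46e-09). Cd63, a granule membrane protein, was higher in PMN-MDSC at 53.3 ± 36.7 CPM in M-MDSC and 139.8 ± 14.3 CPM in PMN-MDSC (log2 fold difference -1.59 ± 0.34, adjusted p = 0.00121), a call that was lost in batch 1 alone.

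The starts of genes that stood at the 2 ends of this granule order and of 1 monocyte factor are shown as examples. These 5 genes separated the cell types without overlap, as did 38.4% of all genes tested. Sequences are from the RefSeq promoter table (GRCm38.p6), 5′ to 3′ on the gene's strand. Each covers up to 250 bases before the annotated start, shortened where a GENCODE transcript of the gene begins inside it. Capitals mark matches on either strand to TTGCNNAA, a core bound by C/EBP factors, or to AGGAAGT, a core bound by the ETS factor PU.1. The motif GAAANNGAA, of the kind bound by IRF factors, was also searched, and no capitals overlap between motifs. The windows are chr4:55532476-55532725 (minus strand), chr10:79886062-79886246 (plus), chr9:111019042-111019270 (plus), chr9:110419558-110419746 (plus) and chr9:7558179-7558428 (plus).

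Klf4: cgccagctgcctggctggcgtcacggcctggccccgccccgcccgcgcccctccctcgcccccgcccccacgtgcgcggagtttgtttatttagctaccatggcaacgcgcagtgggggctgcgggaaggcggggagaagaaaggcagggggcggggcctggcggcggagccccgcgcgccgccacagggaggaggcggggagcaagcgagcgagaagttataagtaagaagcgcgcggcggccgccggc
Elane: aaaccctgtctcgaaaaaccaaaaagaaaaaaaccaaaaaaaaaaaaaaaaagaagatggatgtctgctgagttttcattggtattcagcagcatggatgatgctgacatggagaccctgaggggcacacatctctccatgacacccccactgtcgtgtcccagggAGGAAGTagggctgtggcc
Ltf: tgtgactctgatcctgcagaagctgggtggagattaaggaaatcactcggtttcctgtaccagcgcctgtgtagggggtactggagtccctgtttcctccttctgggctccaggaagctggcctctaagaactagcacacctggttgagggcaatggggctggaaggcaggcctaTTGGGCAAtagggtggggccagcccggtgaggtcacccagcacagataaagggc
Ngp: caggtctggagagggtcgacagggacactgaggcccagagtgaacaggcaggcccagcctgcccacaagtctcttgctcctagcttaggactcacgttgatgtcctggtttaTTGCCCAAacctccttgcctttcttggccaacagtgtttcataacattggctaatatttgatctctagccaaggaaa
Mmp8: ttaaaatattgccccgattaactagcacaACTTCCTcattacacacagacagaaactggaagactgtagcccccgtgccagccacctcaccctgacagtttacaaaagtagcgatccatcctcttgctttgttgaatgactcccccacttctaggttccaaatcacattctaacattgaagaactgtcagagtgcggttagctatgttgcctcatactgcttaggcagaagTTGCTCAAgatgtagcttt

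The Ltf match lay 75 bases before the start, the Ngp match 138 bases, the Elane match 84 bases, and Mmp8 had a C/EBP match at 19 bases and a PU.1 match at 221 bases. The Klf4 window held none of the 3 motifs, which says only that these letters are not in it. Over whole windows of 250 bases, 7.56% of 9128 tested genes with an entry held the C/EBP motif, against 7.95% of the genes called and at least 4-fold higher in M-MDSC and 9.25% of those at least 4-fold higher in PMN-MDSC. The PU.1 motif was in 8.12%, 11.1% and 11.5% of the same 3 sets, and the IRF motif in 6.76%, 7.95% and 7.91%. Entries were found for 352 and 670 genes of the sets higher in M-MDSC and in PMN-MDSC. The shares are descriptions without a test.

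Of 36 myeloid transcription factors tested, 10 were higher in M-MDSC and 12 in PMN-MDSC. Irf8 was at 457, 502, 360.0, 478 and 458 CPM in M-MDSC and 41.6, 54.0, 45.1, 54.0 and 58.8 CPM in PMN-MDSC (log2 fold difference 3.17 ± 0.17, adjusted p = 1.54e-10). Klf4, which supports monocyte differentiation, was at 428, 263, 312, 534 and 403 CPM in M-MDSC and 10.4, 10.8, 5.6002, 9.92 and 6.21 CPM in PMN-MDSC (log2 fold difference 5.56 ± 0.38, adjusted p = 2.45e-09). Neither gene had overlapping groups. Irf5, a factor of inflammatory macrophage genes, was at 359 ± 61.2 CPM in M-MDSC and 33.6 ± 2.10 CPM in PMN-MDSC (log2 fold difference 3.42 ± 0.16, adjusted p = 4.02e-11), and Cebpb, a factor of emergency granulopoiesis and monocyte survival, was at 421 ± 101 CPM in M-MDSC and 101 ± 12.99 CPM in PMN-MDSC (log2 fold difference 2.10 ± 0.25, adjusted p = 2.07e-06). Cebpe, required for late granule proteins, was at 85.9, 207, 145, 89.8 and 110.1 CPM in M-MDSC and 619.9, 676, 548, 603 and 473 CPM in PMN-MDSC and thus higher in every PMN-MDSC library (log2 fold difference -2.22 ± 0.36, adjusted p = 7.71e-05). Spi1, which encodes PU.1 and serves both lines, was at 304 ± 51.3 CPM in M-MDSC and 421 ± 45.1 CPM in PMN-MDSC. Its groups overlapped and its difference (log2 fold difference -0.46 ± 0.18, adjusted p = 0.0461) was not called in 11 of 35 alternative analyses. Gfi1, a repressor needed for neutrophil development, had a log2 fold difference of 0.23 ± 0.40 (adjusted p = 0.669) and was not called.

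Of 26 receptors for colony-stimulating factors and cytokines tested, 10 were higher in M-MDSC and 6 in PMN-MDSC, against 18.7% and 23.4% of all genes tested. The 6 were close to the share of all genes. The sign of the median of this list changed with upper-quartile scaling. Il6st, the gp130 subunit of the IL-6 receptor, was at 203 ± 25.9 CPM in M-MDSC and 21.3 ± 3.18 CPM in PMN-MDSC (log2 fold difference 3.27 ± 0.19, adjusted p = 4.08e-10). Il10ra, the IL-10 receptor, was at 253 ± 44.8 CPM in M-MDSC and 56.4 ± 10.5 CPM in PMN-MDSC (log2 fold difference 2.18 ± 0.15, adjusted p = 2.87e-09). Il18rap, the accessory chain of the IL-18 receptor, was at 39.7 ± 10.7 CPM in M-MDSC and 506 ± 43.7 CPM in PMN-MDSC (log2 fold difference -3.70 ± 0.22, adjusted p = 3.98e-10). Chemoattractant receptors had 4 of 24 tested members higher in M-MDSC, close to the share of all genes, and 14 in PMN-MDSC. The 14 include Cxcr2, Fpr1 and Fpr2 named above, and Ccr2 is among the 4. This list too shares genes with the neutrophil and eosinophil markers.

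Genes tied to T cell suppression were mostly higher in newborn PMN-MDSC. Of 25 listed, 21 were tested, 14 were higher in PMN-MDSC and 1 in M-MDSC, with a median of -1.82, or -1.18 with genes at 0 in M-MDSC set to their bounds. Arg2, the mitochondrial arginase, was at 0.464, 1.92, 0, 0.0469 and 0 CPM in M-MDSC and 38.8, 32.9, 47.5, 46.7 and 29.6 CPM in PMN-MDSC (log2 fold difference -8.28 ± 1.23, adjusted p = 2.66e-05). Only M-MDSC replicates 1, 2 and 77 had counts of it. Arg1 and Nos2 did not pass the filter on low counts: neither had a count in any M-MDSC library, and each had counts in 2 of 5 PMN-MDSC libraries, with means of 0.0797 and 0.279 CPM. Tgfb1, the suppressive cytokine TGF-beta 1, was the member higher in M-MDSC, at 402, 686, 359, 278 and 359 CPM in M-MDSC and 159.8, 166, 141, 147 and 128 CPM in PMN-MDSC (log2 fold difference 1.43 ± 0.18, adjusted p = 4.85e-06), and its groups did not overlap. Il10 had no count in M-MDSC and was at 0, 0, 0.100, 0.170 and 0.174 CPM in PMN-MDSC (adjusted p = 0.155). Cd274, the ligand PD-L1, was at 10.5 ± 7.26 CPM in M-MDSC and 10.7 ± 2.51 CPM in PMN-MDSC, with overlapping groups and no call (log2 fold difference 0.08 ± 0.66, adjusted p = 0.934). The list shares genes with the markers of neutrophils and of tissue macrophages, of which 22 of 23 and 16 of 17 members were higher in PMN-MDSC.

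Of 18 tested genes of prostaglandin and leukotriene synthesis, 3 were higher in M-MDSC and 8 in PMN-MDSC, against 18.7% and 23.4% of all genes tested. Ptgs2, cyclooxygenase 2, was at 26.5, 2.57, 10.7, 27.3 and 11.3 CPM in M-MDSC and 23.5, 29.0, 22.5, 27.5 and 15.8 CPM in PMN-MDSC, with overlapping groups (log2 fold difference -0.53 ± 0.51, adjusted p = 0.423). Ptges, which makes prostaglandin E2 from the product of cyclooxygenase, was at 13.001, 12.2, 16.7, 12.4 and 8.70 CPM in M-MDSC and 77.1, 83.0, 71.6, 79.9 and 69.7 CPM in PMN-MDSC, with every PMN-MDSC library above every M-MDSC library (log2 fold difference -2.70 ± 0.65, adjusted p = 0.00249). The call of Ptges was lost with a batch coefficient for each cell type. Alox5, the 5-lipoxygenase that starts leukotriene synthesis, was at 80.9 ± 35.2 CPM in M-MDSC and 713 ± 82.0 CPM in PMN-MDSC (log2 fold difference -3.18 ± 0.29, adjusted p = 6.65e-08), and Lta4h, which completes leukotriene B4, was at 419.9 ± 151 CPM in M-MDSC and 1400.0 ± 143 CPM in PMN-MDSC (log2 fold difference -1.75 ± 0.21, adjusted p = 3.23e-06). The list shares a gene with the eosinophil markers, of which 6 of 10 tested members were higher in PMN-MDSC.

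The NADPH oxidase was higher in newborn PMN-MDSC. Of 8 genes, all tested, 7 were higher in PMN-MDSC and none in M-MDSC (median -1.30), with sums of 4256, 5402, 4883, 3730.2 and 4527 CPM in M-MDSC and 11795, 11982, 12018, 12185 and 10671 CPM in PMN-MDSC. Cybb, the catalytic subunit gp91phox, was at 1351, 723, 1346, 1447 and 1636 CPM in M-MDSC and 3495, 3297, 3860.4, 3618 and 3645 CPM in PMN-MDSC (log2 fold difference -1.44 ± 0.17, adjusted p = 1.98e-06). Ncf1, the organizer p47phox, was at 569.7, 956, 799, 578 and 635 CPM in M-MDSC and 2841, 3245, 2783, 3208 and 2428 CPM in PMN-MDSC (log2 fold difference -2.05 ± 0.15, adjusted p = 6.97e-09), and Ncf4, the subunit p40phox, was at 310.4 ± 92.6 CPM in M-MDSC and 676 ± 65.3 CPM in PMN-MDSC (log2 fold difference -1.16 ± 0.15, adjusted p = 6.60e-06). No PMN-MDSC library overlapped with an M-MDSC library in these 3 genes. Upper-quartile scaling left 6 of the 8 higher in PMN-MDSC and put 1 higher in M-MDSC. Xdh, xanthine oxidoreductase, another source of reactive oxygen, was at 654 ± 18.3 CPM in M-MDSC and 1419.8 ± 119 CPM in PMN-MDSC (log2 fold difference -1.13 ± 0.11, adjusted p = 1.61e-07).

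Of 40 chemokine and cytokine genes listed, 30 were tested, 5 were higher in M-MDSC and 11 in PMN-MDSC (median -1.11), against 18.7% and 23.4% of all genes tested. The 5 were close to the share of all genes. Ccl9, a CCR1 ligand, was at 134 ± 29.6 CPM in M-MDSC and 7.10 ± 2.36 CPM in PMN-MDSC (log2 fold difference 4.17 ± 0.25, adjusted p = 4.08e-10), and Ccl3, a further ligand of CCR1, was at 41.7 ± 15.6 CPM in M-MDSC and 2.97 ± 0.576 CPM in PMN-MDSC (log2 fold difference 3.76 ± 0.62, adjusted p = 8.91e-05). Il1b, the inflammatory cytokine interleukin 1 beta, was at 32.5, 17.3, 11.6, 21.5 and 8.70 CPM in M-MDSC and 152, 165, 158, 168 and 89.0 CPM in PMN-MDSC (log2 fold difference -3.09 ± 0.43, adjusted p = 1.50e-05). Its antagonist Il1rn was higher in the same cells, at 5.39 ± 2.46 CPM in M-MDSC and 97.5 ± 18.1 CPM in PMN-MDSC (log2 fold difference -4.35 ± 0.48, adjusted p = 8.48e-07). The list shares genes with the platelet markers, of which 3 of 6 tested members were higher in PMN-MDSC.

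Genes of MHC class II antigen presentation went both ways. Of 14 MHC class II genes tested, 3 were higher in M-MDSC and 7 in PMN-MDSC (median -1.48), and the 7 became 2 in batch 1 alone and 10 without M-MDSC replicates 2 and 77. H2-Aa, a class II alpha chain, was at 71.0, 32.1, 16.7, 8.49 and 18.96 CPM in M-MDSC and 62.4, 84.3, 83.0, 98.9 and 136 CPM in PMN-MDSC, and M-MDSC replicate 1 reached the PMN-MDSC range (log2 fold difference -1.79 ± 0.42, adjusted p = 0.00203). Cd74, the invariant chain, was at 106 ± 70.8 CPM in M-MDSC and 328 ± 52.9 CPM in PMN-MDSC (log2 fold difference -1.76 ± 0.34, adjusted p = 3.71e-04), and Ciita, the transactivator of class II genes, was at 8.94 ± 4.58 CPM in M-MDSC and 23.6 ± 4.44 CPM in PMN-MDSC (log2 fold difference -1.51 ± 0.31, adjusted p = 7.43e-04). H2-Aa and Ciita were not called in batch 1 alone. H2-DMa, which exchanges peptides, was at 109 ± 31.4 CPM in M-MDSC and 26.4 ± 3.75 CPM in PMN-MDSC and higher in M-MDSC (log2 fold difference 2.02 ± 0.20, adjusted p = 1.72e-07), as was Ifi30, a lysosomal thiol reductase (log2 fold difference 2.08 ± 0.22, adjusted p = 4.27e-07). B cells express class II genes, and their marker genes were higher in PMN-MDSC, as given above (13 of 13 members). MHC class I genes had 3 of 17 tested members higher in M-MDSC and 5 in PMN-MDSC, close to the shares of all genes tested (18.7% and 23.4%). Costimulatory ligands had 2 of 8 higher in PMN-MDSC, also close to the share of all genes, and none in M-MDSC.

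Complement genes had 3 of 18 tested members higher in M-MDSC and 12 in PMN-MDSC (median -1.35), the 12 including Itgam, which was also used in the sort. C1qb, higher in PMN-MDSC, also belongs to the tissue macrophage list, of which 16 of 17 members were higher in PMN-MDSC, and the list also shares a gene with the B cell markers. Of 8 Fc receptor genes tested, Fcgr1, the high-affinity IgG receptor, was higher in M-MDSC (log2 fold difference 1.94 ± 0.37, adjusted p = 3.20e-04), and 5 were higher in PMN-MDSC (3 without M-MDSC replicate 79), including Fcgr4 (log2 fold difference -4.28 ± 0.67, adjusted p = 4.72e-05). Pattern recognition receptors had 6 of 32 members higher in M-MDSC and 11 in PMN-MDSC, with a median whose sign changed under upper-quartile scaling. The 6 matched the share of all genes tested (18.7%), and the share toward PMN-MDSC was 23.4% over all genes. Clec7a, the beta-glucan receptor dectin 1, was at 213 ± 76.3 CPM in M-MDSC and 56.4 ± 7.98 CPM in PMN-MDSC (log2 fold difference 1.96 ± 0.28, adjusted p = 1.58e-05). Nlrp12, a NOD-like receptor that is not a member of the list, was at 4.43 ± 2.01 CPM in M-MDSC and 107 ± 11.3 CPM in PMN-MDSC (log2 fold difference -4.74 ± 0.32, adjusted p = 8.08e-09). Mrc1, given above, belongs both to the pattern recognition receptor list and to the tissue macrophage markers.

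Lysosome genes leaned toward M-MDSC, with 17 of 32 tested members higher in M-MDSC and 3 in PMN-MDSC (median 0.37), the 3 becoming 7 without adult M-MDSC replicate 28, 6 without adult M-MDSC replicate 1 or newborn M-MDSC replicate 2 and 5 without adult PMN-MDSC replicate 1 or 2. Npc2, which moves cholesterol out of lysosomes, was at 529, 614, 559.6, 506 and 536 CPM in M-MDSC and 90.3, 88.2, 100.3, 107 and 98.5 CPM in PMN-MDSC, without overlap (log2 fold difference 2.504 ± 0.16, adjusted p = 1.03e-09). Integrin and adhesion genes went the other way, with 7 of 24 tested members higher in M-MDSC and 13 in PMN-MDSC. The 13 include Itgam, which was also used in the sort, and the list shares a gene with the platelet markers. Itgb7, a gut-homing integrin chain, was at 495 ± 67.0 CPM in M-MDSC and 35.4 ± 7.92 CPM in PMN-MDSC (log2 fold difference 3.80 ± 0.21, adjusted p = 1.60e-10), and Itga5, the fibronectin receptor chain, was at 112 ± 22.96 CPM in M-MDSC and 8.25 ± 1.96 CPM in PMN-MDSC (log2 fold difference 3.65 ± 0.31, adjusted p = 3.98e-08). Cd24a, a mucin-like adhesion molecule, was at 81.0 ± 21.1 CPM in M-MDSC and 764 ± 68.8 CPM in PMN-MDSC (log2 fold difference -3.25 ± 0.18, adjusted p = 1.54e-10). Interferon response genes had 10 of 40 members higher in M-MDSC and 9 in PMN-MDSC, close to the shares of all genes tested, with a median of 0.13.

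Genes of DNA replication were higher in newborn M-MDSC. Of 35 S phase genes, all tested, 19 were higher in M-MDSC and none in PMN-MDSC (median 0.96), with sums of 3932, 5357, 5068, 4568 and 4369 CPM in M-MDSC and 2274, 2817, 2314, 2849 and 2585 CPM in PMN-MDSC, which did not overlap. Mcm3, part of the replicative helicase, was at 215, 296, 262, 273 and 257 CPM in M-MDSC and 71.1, 93.4, 72.6, 83.9 and 83.5 CPM in PMN-MDSC (log2 fold difference 1.67 ± 0.15, adjusted p = 5.38e-08), and Cdt1, which loads it, was at 158 ± 31.3 CPM in M-MDSC and 42.8 ± 6.37 CPM in PMN-MDSC (log2 fold difference 1.86 ± 0.22, adjusted p = 1.87e-06). Genes of G2 and mitosis had 4 of 38 members higher in M-MDSC, below the share of all genes tested (18.7%), and none in PMN-MDSC. The 4 became 1 without M-MDSC replicate 2 or 3, PMN-MDSC replicate 2 or 37, adult M-MDSC replicate 1 or adult PMN-MDSC replicate 1 or 2. Aurkb, a mitotic kinase, was at 209 ± 39.2 CPM in M-MDSC and 96.7 ± 8.30 CPM in PMN-MDSC (log2 fold difference 1.21 ± 0.35, adjusted p = 0.00912). Mki67, the proliferation antigen Ki-67, was at 570.2, 210.4, 511, 481 and 841 CPM in M-MDSC and 513, 521, 538, 576 and 651 CPM in PMN-MDSC, and its groups overlapped (log2 fold difference -0.10 ± 0.43, adjusted p = 0.877). The S phase count was 12 without PMN-MDSC replicates 2 and 3, 28 when the 10 newborn libraries were fitted alone, and 17 without M-MDSC replicates 2 and 77. Progenitor genes had 3 of 11 tested members higher in PMN-MDSC, close to the share of all genes tested (23.4%), and none in M-MDSC.

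Ribosomal protein genes were higher in M-MDSC. Of 77 tested, 45 were higher in M-MDSC and 1 in PMN-MDSC (median 0.97), with sums of 13767 to 26926 CPM in M-MDSC and 7852 to 8404 CPM in PMN-MDSC. Rps2 was at 966, 1558, 1144, 1056 and 1219 CPM in M-MDSC and 304, 362, 285, 335 and 301 CPM in PMN-MDSC (log2 fold difference 1.92 ± 0.17, adjusted p = 6.22e-08). Without PMN-MDSC replicates 2 and 3, 23 members were higher in M-MDSC. Glycolysis genes had 3 of 26 tested members higher in M-MDSC and 12 in PMN-MDSC. Slc2a3, the glucose transporter GLUT3, was at 54.3, 65.4, 78.3, 54.1 and 62.0 CPM in M-MDSC and 1395, 1426, 1474, 1533 and 1196 CPM in PMN-MDSC (log2 fold difference -4.50 ± 0.15, adjusted p = 6.33e-13), and Hk3, a hexokinase of myeloid cells, was at 271 ± 109 CPM in M-MDSC and 909 ± 97.1 CPM in PMN-MDSC (log2 fold difference -1.81 ± 0.21, adjusted p = 1.60e-06). Ldhb, a lactate dehydrogenase subunit, was at 53.8 ± 14.8 CPM in M-MDSC and 5.22 ± 0.987 CPM in PMN-MDSC and higher in M-MDSC (log2 fold difference 3.49 ± 0.39, adjusted p = 1.01e-06). Oxidative phosphorylation genes had 17 of 38 members higher in M-MDSC and 1 in PMN-MDSC, among the former Atp5a1, a subunit of ATP synthase (log2 fold difference 1.09 ± 0.15, adjusted p = 8.00e-06). That count was 10 without PMN-MDSC replicate 2, 11 without PMN-MDSC replicate 3 or M-MDSC replicate 2, 7 without both PMN-MDSC replicates or in batch 2 alone, and 0 when a difference of at least 2-fold was required. Lipid synthesis genes were near the shares of all genes tested (18.7% and 23.4%), with 7 of 28 higher in M-MDSC, such as the fatty acid synthase Fasn (log2 fold difference 1.88 ± 0.19, adjusted p = 2.94e-07), and 6 in PMN-MDSC, such as the desaturase Scd1 (log2 fold difference -2.62 ± 0.32, adjusted p = 2.54e-06).

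A list of 13 genes typical of fetal and neonatal cells had 5 members tested, of which 1 was higher in M-MDSC and 2 in PMN-MDSC. Of all genes tested, 18.7% and 23.4% were. Lin28a, an RNA-binding protein of fetal blood progenitors, was at 12.5, 34.0, 34.3, 18.1 and 33.3 CPM in M-MDSC and 194, 224, 193, 235 and 194 CPM in PMN-MDSC (log2 fold difference -3.02 ± 0.41, adjusted p = 1.12e-05). Arid3a, a DNA-binding factor, was at 525 ± 42.2 CPM in M-MDSC and 869 ± 98.8 CPM in PMN-MDSC (log2 fold difference -0.72 ± 0.16, adjusted p = 0.00133). Hmga1, a chromatin protein of dividing cells, was at 301 ± 84.1 CPM in M-MDSC and 76.2 ± 7.39 CPM in PMN-MDSC (log2 fold difference 1.95 ± 0.20, adjusted p = 4.65e-07).

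Several of the largest differences were in other genes. Toward M-MDSC, Galnt9, which starts O-linked glycans, was at 38.7 ± 4.65 CPM in M-MDSC and 0.0915 ± 0.131 CPM in PMN-MDSC (log2 fold difference 8.52 ± 0.75, adjusted p = 5.76e-08). Stxbp6, a regulator of vesicle fusion, Plcb1, a phospholipase C, Apba1, a scaffold protein, Met, the receptor for hepatocyte growth factor, and Arhgef37 had log2 fold differences of 7.02 ± 0.68 (adjusted p = 1.67e-07), 6.77 ± 0.70 (adjusted p = 3.78e-07), 6.62 ± 0.23 (adjusted p = 6.33e-13), 6.43 ± 0.58 (adjusted p = 7.33e-08) and 7.21 ± 0.40 (adjusted p = 2.00e-10). None of these 6 genes had overlapping groups. Toward PMN-MDSC, the dynein chain Dnah6 was at 15.9, 15.998, 13.9, 16.3 and 13.05 CPM, Tmem45a2 at 20.8, 12.1, 20.5, 13.1 and 13.7 CPM and the hyaluronan receptor Lyve1 at 17.0, 8.65, 14.8, 10.3 and 8.00 CPM, and none of the 3 had a count in M-MDSC. By the same pooled counts they were at least 250.3-fold, 289-fold and 204-fold higher in PMN-MDSC. Chil5 and the orphan receptor Gpr27 had 1 to 3 counts in M-MDSC, and their ratios of PMN-MDSC to M-MDSC, again from counts pooled over each group and not from the group means, were 1138 (exact 95% binomial interval 204 to 44988) and 585 (162 to 4838). These bounds and intervals cover counting error only. Lyve1 is also expressed by some tissue macrophages, whose marker list had 16 of 17 members higher in PMN-MDSC.

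The same contrast in adult cells used separate libraries, in which Kdm5d had no count, so age and sex composition cannot be told apart here. In adults, 3772 genes (29.1%) were called, 2158 (16.7%) higher in M-MDSC and 1614 (12.5%) higher in PMN-MDSC. Genes called with the same sign at both ages numbered 2104, which was 38.7% of the newborn calls and 55.8% of the adult calls, and 282 were called with opposite signs (5.19% and 7.48%). The difference of the cell type effects, newborn minus adult, was called for 2344 genes (18.1%), of which 856 (6.61%) were shifted toward M-MDSC in newborns and 1488 (11.5%) toward PMN-MDSC. The adult comparison rests on 3 M-MDSC libraries, and without adult M-MDSC replicate 28 its count fell to 2250, while that of the difference was 2316.

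**Figure D4:**
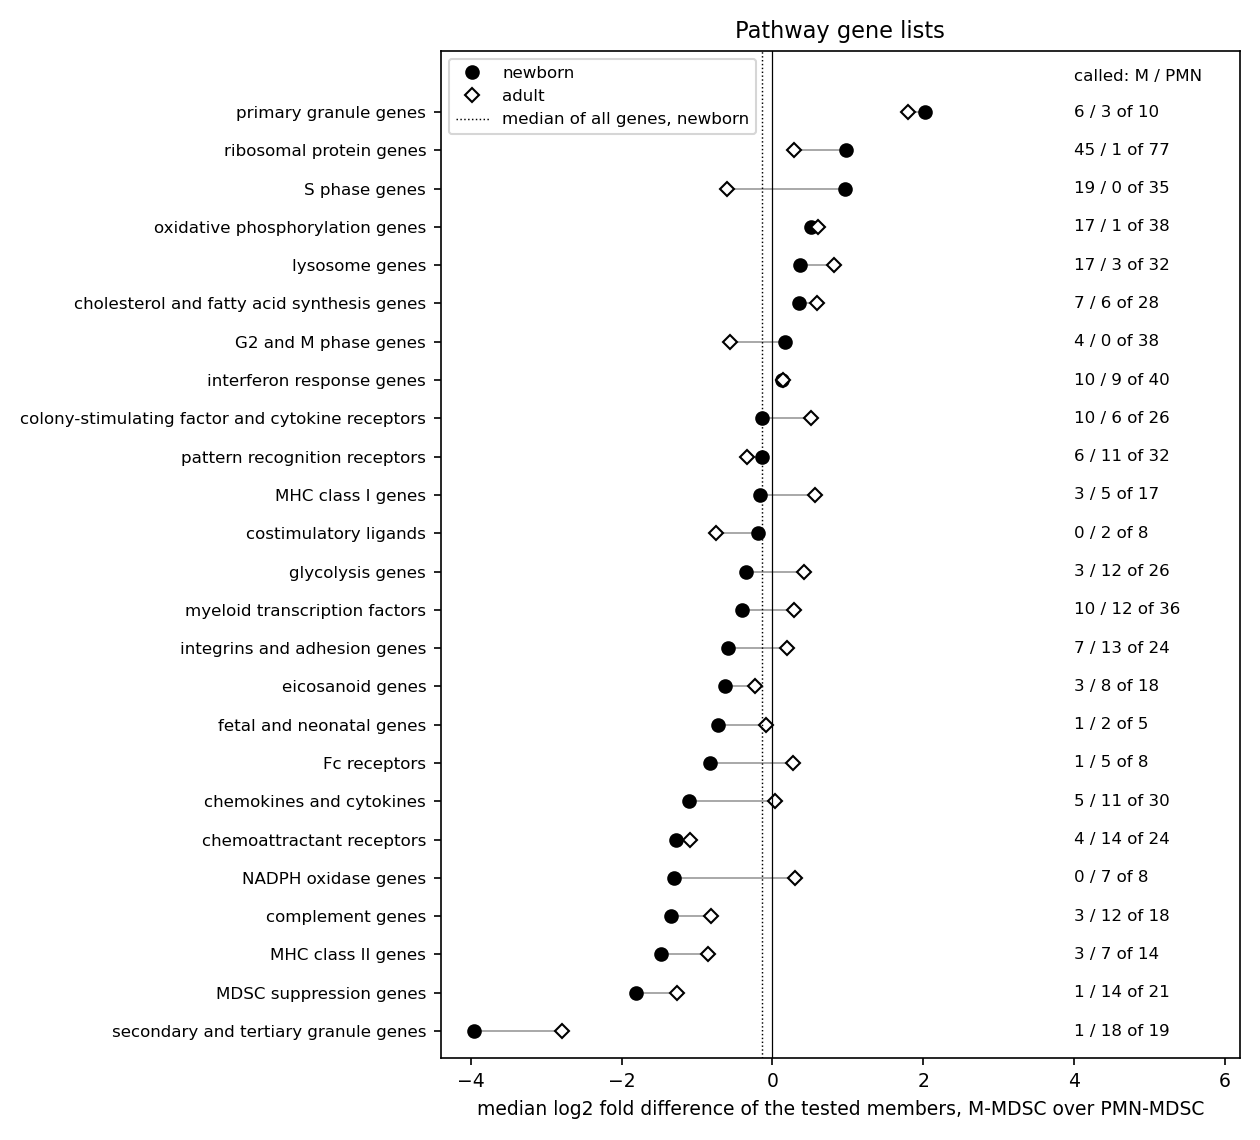
For each pathway list, the filled circle is the median log2 fold difference (M-MDSC over PMN-MDSC) of its tested members in newborn cells and the open diamond that in adult cells; the dotted line marks the newborn median of all genes, -0.13. Numbers at the right give members called higher in newborn M-MDSC and in PMN-MDSC. S phase genes (0.96 and -0.61) and NADPH oxidase genes (-1.30 and 0.29) have medians of opposite sign at the 2 ages.

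Of 8 NADPH oxidase genes, 7 were called for the difference between ages, and all 7 were shifted toward PMN-MDSC in newborns. Cybb was higher in PMN-MDSC in newborns and higher in M-MDSC in adults, where its log2 fold difference was 1.55 (adjusted p = 3.78e-06), and the difference between ages was -2.999 ± 0.25, adjusted p = 3.33e-07. The adult group means were 1339 CPM in M-MDSC and 464 CPM in PMN-MDSC, against newborn means of 1301 and 3583 CPM. Ncf1 had an adult difference of -0.38 (adjusted p = 0.0913), and the ages differed by -1.67 ± 0.22, adjusted p = 3.80e-05. Xdh changed sign in the same way, from -1.13 in newborns to 1.65 (adjusted p = 6.14e-09) in adults (-2.78 ± 0.16, adjusted p = 2.90e-09). Chil3 did so too, with 1.4997 (adjusted p = 1.42e-04) in adults and a difference of -4.28 ± 0.34, adjusted p = 2.21e-07. The count of 7 became 5 without PMN-MDSC replicates 2 and 3 and their adult counterparts and 2 in batch 1 alone.

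For secondary and tertiary granule genes, 9 of 19 tested members were called for the difference between ages, all toward PMN-MDSC in newborns, including Ltf (-1.59 ± 0.47, adjusted p = 0.0225), Camp (-1.97 ± 0.60, adjusted p = 0.0284), Ngp (-1.69 ± 0.55, adjusted p = 0.0397) and Mmp8 (-1.72 ± 0.23, adjusted p = 5.32e-05). The 9 became 3 in batch 1 alone, 4 without PMN-MDSC replicates 2 and 3 and their adult counterparts and 5 without adult M-MDSC replicate 28. In adult PMN-MDSC the mean of Camp was 193 CPM, and the adult cell types were not called different (-0.75, adjusted p = 0.235). S100a8 and S100a9 were not called for the difference between ages (adjusted p = 0.165 and 0.376). Cebpe, at 17.1 and 11.4 CPM in adult M-MDSC and PMN-MDSC, differed between the cell types by an amount that changed with age (-2.96 ± 0.54, adjusted p = 8.54e-04). The neutrophil receptors Cxcr2, Csf3r and Fpr1 were shifted the other way, by 2.15 ± 0.70, adjusted p = 0.0396, by 1.39 ± 0.21, adjusted p = 1.59e-04 and by 2.83 ± 0.62, adjusted p = 0.00349. Their lead in PMN-MDSC was larger in adults. Fpr2 was shifted toward PMN-MDSC in newborns (-1.95 ± 0.27, adjusted p = 7.29e-05), and the neutrophil and the chemoattractant receptor lists each had 5 members shifted either way.

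Monocyte regulators showed a larger lead of M-MDSC in newborns. Klf4 was at 276 and 90.8 CPM in adult M-MDSC and PMN-MDSC (log2 fold difference 1.61 (adjusted p = 0.00134)), and its difference between ages was 3.95 ± 0.51, adjusted p = 3.80e-05. Irf8 differed between ages by 2.64 ± 0.25, adjusted p = 1.33e-06, and Irf5 by 1.76 ± 0.22, adjusted p = 3.16e-05. The adult M-MDSC means of these 3 genes were 276, 371 and 462 CPM, within 1.5 times the newborn M-MDSC means, and their adult PMN-MDSC means were at least 4 times the newborn ones. Marker sums in PMN-MDSC also changed with age. B cell genes summed to 4752 to 7443 CPM in adults and 717 to 1089.9 CPM in newborns. Adult M-MDSC had 1137 to 2701 CPM and newborn M-MDSC 189 to 339.9 CPM. Of 13 B cell genes, 0 were called for the difference between ages. Neutrophil genes summed to 10032 to 13067 CPM in adult PMN-MDSC, against 66971 to 79557 CPM in newborn ones. The part of these changes in the differences between ages was not tested. Clec7a was higher in newborn M-MDSC and lower in adult M-MDSC than in PMN-MDSC, with an adult value of -1.27 (adjusted p = 0.00525) and a difference between ages of 3.23 ± 0.42, adjusted p = 4.13e-05. Ly6c2 led in adult M-MDSC by 3.61 (adjusted p = 1.13e-08), against 0.58 in newborns (-3.03 ± 0.35, adjusted p = 1.30e-05).

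**Figure D5:**
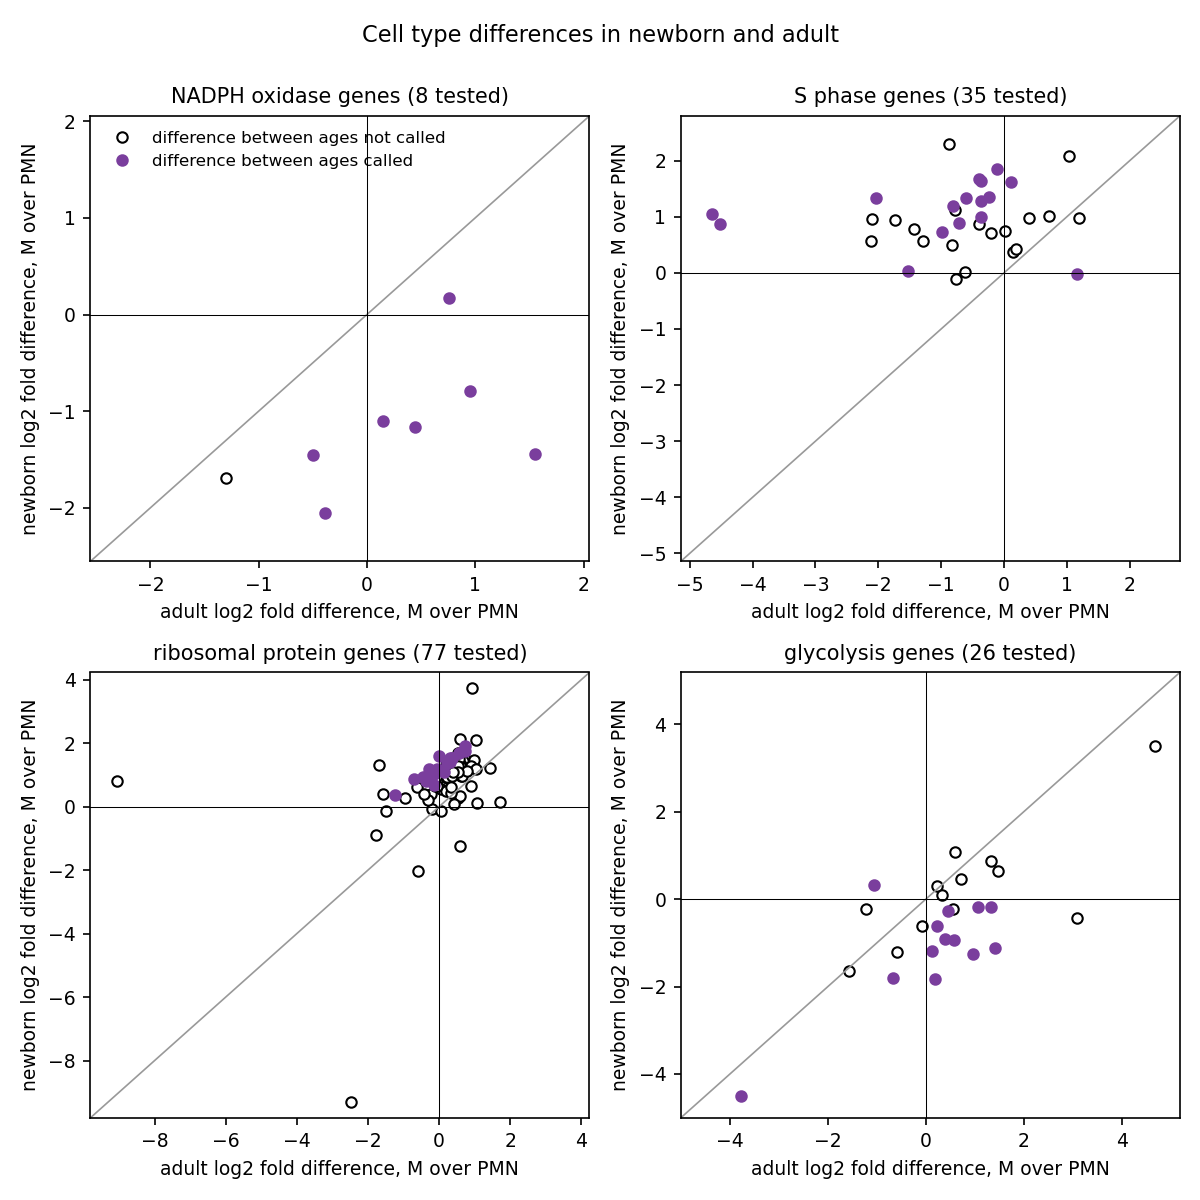
Each point is 1 tested member of 4 lists, with the adult log2 fold difference (M-MDSC over PMN-MDSC) on the x axis and the newborn one on the y axis; filled points were called for the difference between ages, and the diagonal marks equal values. S phase and ribosomal points lie mostly above the diagonal (15 and 19 called above it) and NADPH oxidase and glycolysis points mostly below it (7 and 12 called below it).

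Of 35 S phase genes, 15 were called for a shift toward M-MDSC in newborns and 1 for the opposite, and their adult median was -0.61. Mcm3 was not called in adults (-0.39 (adjusted p = 0.0917)) and differed between ages by 2.07 ± 0.23, adjusted p = 7.17e-06. Of 77 ribosomal protein genes, 19 were called toward M-MDSC in newborns and none toward PMN-MDSC, a count that was 5 without PMN-MDSC replicates 2 and 3 and their adult counterparts, 8 in batch 2 alone, 31 without adult M-MDSC replicate 28, 29 without newborn M-MDSC replicate 77 and 0 when a difference of at least 2-fold was required. Of 26 glycolysis genes, 12 were called toward PMN-MDSC in newborns and 1 toward M-MDSC, including Hk3 (-1.14 ± 0.30, adjusted p = 0.0118) and Slc2a3 (-0.73 ± 0.20, adjusted p = 0.0163), with an adult median of 0.42. In batch 1 alone the S phase count of 15 was 9 and the glycolysis count of 12 was 3, and the S phase count was 10 without PMN-MDSC replicates 2 and 3 and their adult counterparts. Tissue macrophage genes had 6 of 17 members called toward PMN-MDSC in newborns (1 in batch 1 alone, 4 without PMN-MDSC replicates 2 and 3 and their adult counterparts) and none toward M-MDSC, with C1qb differing by -2.61 ± 0.46, adjusted p = 6.63e-04 and Mrc1 by -2.35 ± 0.47, adjusted p = 0.00163. Their part in the other differences between ages was not tested.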

How the data were processed

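Total RNA of sorted or column-purified spleen cells was sequenced. Estimated counts of genes were deposited by the authors in 1 table, in which the values of all 19 libraries were whole numbers, and RSEM 1.2.3, DESeq2 and mm10 appear in the submitters' processing notes without a stated role or order. For the aligner, the annotation and any use of strand, the sources used here give nothing, so reads of overlapping antisense genes cannot be told apart. Groups and batches were taken from the labels.

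From the 38887 genes of the table, 12943 passed edgeR's expression filter. All 19 libraries entered 1 quasi-likelihood model with a term for each of the 4 groups and for batch (TMM scaling, 14 residual degrees of freedom), so that they shared 1 estimate of the spread. Contrasts were newborn M-MDSC against PMN-MDSC, the same in adults, and the difference of both. P-values were adjusted by Benjamini-Hochberg over all genes tested. Standard errors are the log2 fold difference divided by the square root of F. Rounding to whole numbers changed 0 values. R 4.3.3, edgeR 4.0.16, limma 3.58.1 and DESeq2 1.42.0 were used, the last 2 for alternatives, and the code was tested on simulated data. Gene positions are from GENCODE on GRCm38 (96.6% of genes).

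The libraries, gene lists and named genes were chosen with earlier results of these data known. Genes were named as the 12 largest called in each direction with a mean of at least 10 CPM and the same sign in both batches, up to 3 called members per pathway list and direction, a fixed set of lineage and function genes, the 6 largest differences between ages in each direction and the 3 most abundant markers of each other cell type. Some genes allowed by this rule are not reported here. Alternatives varied the batch term, the batches and libraries used, the scaling, the count filter, the test and a tested minimum of 2-fold.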

Additional observations from a re-analysis of the deposited data

Results flagged for a closer look

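Of 280 groups of 5 newborn values tested (the genes named and the summed levels of the lists), 13 had a library whose gap to the nearest other exceeded 0.71 of the range, Dixon's critical value for 5 samples. Chance flags about 1 in 20 groups. M-MDSC replicate 2 supplied 5 of them: Arg2 at 1.92 CPM, Spi1 at 391.9 CPM, Ncf4 at 470.1 CPM, Hmga1 at 446 CPM and the summed costimulatory ligands at 1222 CPM, each the highest of its group. The Arg2 value is the level of 3 counts in that library. PMN-MDSC replicate 39 supplied 3, with Mpo (62.1 CPM) at the top and Il1b (89.0 CPM) and the summed NADPH oxidase genes (10671 CPM) at the bottom. M-MDSC replicate 77 stood apart in the summed integrin and adhesion genes (5539.9 CPM) and the summed interferon response genes (1218 CPM). With 1 count, Chil5 was at 0.463 CPM in M-MDSC replicate 3, and with 2 counts Gpr27 was at 0.0805 CPM in M-MDSC replicate 79. Plcb1 in PMN-MDSC replicate 2 was at 2.19 CPM. No cause of these values was tested.

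The difference of the cell type effects, newborn minus adult, was called for 48 of 99 genes named (edgeR, adjusted over all genes). In log2 units, those shifted toward M-MDSC in newborns were Klf4 (3.95), Clec7a (3.23), Ccl3 (3.12), Fpr1 (2.83), Irf8 (2.64), Ptgs2 (2.60), Cxcr2 (2.15), Mcm3 (2.07), Apba1 (2.03), Cdt1 (1.97), Ctsc (1.87), Il6st (1.84), H2-DMa (1.79), Irf5 (1.76), Ccr2 (1.68), Fasn (1.56), Csf3r (1.39), Hmga1 (1.22), Rps2 (1.18), Cebpb (1.12), Itgb7 (1.10), Il10ra (1.02) and Ctss (0.85). Those shifted toward PMN-MDSC in newborns were Chil3 (-4.28), Ptges (-3.37), Ly6c2 (-3.03), Cybb (-2.999), Cebpe (-2.96), Xdh (-2.78), C1qb (-2.61), Itgam (-2.55), Mrc1 (-2.35), Camp (-1.97), Fpr2 (-1.95), Lta4h (-1.82), Mmp8 (-1.72), Ngp (-1.69), Ncf1 (-1.67), Ncf4 (-1.61), Ltf (-1.59), Fn1 (-1.23), Il18rap (-1.18), Hk3 (-1.14), Spi1 (-1.08), Arid3a (-0.95) and Slc2a3 (-0.73). Nlrp12 and Cd63 had no count in adult M-MDSC, so that their fitted differences of 8.61 and 8.59 depend on the prior count. In adults, from counts pooled over each group against 3 counts over the M-MDSC group, they were at least 815-fold and 83.4-fold higher in PMN-MDSC, against newborn log2 fold differences of -4.74 and -1.59. Cd63 is a gene of many cell types, and its absence from all 3 adult M-MDSC libraries was not followed further.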

How the results depend on the processing

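Over 35 alternatives, the log2 fold differences of the named genes kept their side of the threshold in 3427 cases, lost the call in 28 and gained it in 8, and no called difference changed sign. Genes without a call could change sign, as Cd274 (-0.41 to 0.34), Gfi1 (-0.43 to 0.73), Ly6c1 (-1.26 to 0.77) and Mki67 (-0.42 to 0.20) did. The differences between ages of the named genes were less stable. They kept their side of the threshold in 3127 cases, lost the call in 175 and gained it in 60. In 4 cases the sign changed with a call before or after. The newborn count of 5437 became 3231 in batch 1 alone, 1732 with a tested minimum of 2-fold, 5443 in batch 2 alone, 6107 by DESeq2 and 5148 without M-MDSC replicates 2 and 77, and ran from 4777 to 6328 leaving out 1 library at a time. The adult count of 3772 became 1368 in batch 1, 6457 in batch 2, 2407 without the possibly shared batch 1 PMN-MDSC libraries, 5901 by limma-voom and 844 at 2-fold, and ran from 2250 to 5036 leaving out 1 library. The count for the difference between ages, 2344, became 408, 4254, 968, 3580 and 381 in the same order and ran from 2021 to 2905. The 2-fold minimum is stricter by construction. For the others the cause was not tested.

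The share of newborn calls higher in M-MDSC, 44.4%, was 53.7% with upper-quartile scaling, 31.1% in batch 2 and 28.7% without PMN-MDSC replicates 2 and 3. For the difference between ages, upper-quartile scaling moved it from 36.5% to 50.5%, batch 2 alone to 57.9% and leaving out the batch 1 PMN-MDSC libraries to 22.2%.

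Medians near 0 changed sign for cytokine receptors, pattern recognition receptors, costimulatory ligands, interferon response genes and G2 and M phase genes under some alternatives. Larger changes of sign were those of dendritic cell genes (0.64 with no batch term, 1.01 with a batch coefficient for each cell type, 1.58 in batch 1, 0.13 without adult PMN-MDSC replicate 33, 0.36 without newborn M-MDSC replicate 77, 0.28 without 79 and 0.11 without 2 and 77, with a range of -0.86 to 0.36 leaving out 1 library), patrolling monocyte genes (-0.19 with a batch coefficient for each cell type, -0.0954 in batch 1) and NK cell genes (0.52 in the newborn libraries alone, 1.15 in batch 1). Differences between ages that changed sign were S100a9 (-1.24), Ptges (6.12) and Mki67 (3.45) in batch 2 alone, which holds 1 adult M-MDSC library, and Aurkb (1.06) without adult M-MDSC replicate 28, in a range of -0.86 to 1.06 leaving out 1 library. The cause was not tested.

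Correlations of deviations between newborn libraries of the same replicate number were -0.047 for replicates 2 and 0.0014 for replicates 3. Batch 1 held only 2 newborn PMN-MDSC libraries, whose deviations from their mean mirror each other. These values therefore cannot decide whether libraries of the same number share a source. With the replicate block the counts were 5572, 4082 and 2360. The batch 1 libraries are the shallow ones, with library floors up to 1.92 CPM, which limits statements on genes near that level. Intervals and floors cover counting error only.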
